A study of Mus musculus with 9 samples.

Results

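The genes described here are 10 genes of melanin synthesis, chosen by name: Tyr, Tyrp1, Dct, Pmel, Mlana, Slc45a2, Slc24a5, Oca2, Gpr143 and Mitf. They were read from counts per gene of mouse iris RNA, in which 18349 genes were listed. All 10 genes were listed, and all 10 were among the 15010 genes with enough counts to be tested. The question was how far their RNA differed between sham-treated irises and irises after corneal alkali injury (CAI), and whether it differed between genotypes after CAI.

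The RNA came from 9 libraries in 3 groups of 3, and each library held 3 pooled irises on a C57BL/6J background. Sham VEGFR3fl/fl mice were given phosphate-buffered saline on the cornea, and injured VEGFR3fl/fl and injured VEGFR3iLECko mice had sodium hydroxide (0.5 μL at 1 M) placed there for 60 s, at 6 weeks of age. VEGFR3fl/fl mice, which the labels call WT, carried floxed Vegfr3 alleles without Cre, and VEGFR3iLECko mice carried the same alleles with Prox1CreERT2, a tamoxifen-inducible Cre under the Prox1 gene that is active in lymphatic endothelial cells and in some other cell types. The labels give tamoxifen at 80 mg/kg on days 13 to 17 after injury for all 3 groups, and irises were taken at 10 weeks of age, 28 days after injury. Each library was a separate pool from 3 mice, so p-values measure the spread between pools.

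Melanin is made in melanosomes, pigment organelles of the iris pigment epithelium, which derives from the optic cup, and of stromal melanocytes, which derive from the neural crest. Tyrosinase (Tyr) catalyses the rate-limiting oxidation of tyrosine, and the related enzymes dopachrome tautomerase (Dct) and Tyrp1 act further along the eumelanin pathway. Pmel forms the fibrils on which melanin is laid down, and Mlana is a small melanosomal membrane protein that binds Pmel. Slc45a2, Slc24a5 and Oca2 are transporters of the melanosome and its precursors or of the trans-Golgi network, and their loss lightens pigment. Gpr143 is a melanosomal receptor whose loss causes ocular albinism. Mitf is a basic helix-loop-helix transcription factor that activates many of these genes in both kinds of pigment cell.

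Library totals ran from 16617187 to 18306359 estimated counts. Across all 15010 genes, 3323 were higher and 2630 lower after injury by more than 1.5-fold with an adjusted p below 0.05 (edgeR quasi-likelihood test). Genes past both limits are called differentially expressed genes (DEGs) below. Of these DEGs 55.8% were higher, against 44.1% when libraries were scaled by their totals alone. Flt4, the gene for VEGFR3, averaged 20.1 CPM (counts scaled to a common library size) in injured VEGFR3fl/fl and 25.4 CPM in the libraries labelled VEGFR3iLECko, a log2 fold change of 0.33 with an edgeR adjusted p of 0.20, so a loss of its RNA was not seen in whole iris. Rod genes varied between libraries of every group, as for Gnat1, the rod transducin subunit, with 94 to 3776 counts. The 2 ciliary body genes that the study used as a check, Atp6v1c2 and Cacna1e, had at most 33 counts in any library. The study called both undetectable by TPM, a level per transcript length. By the approximate TPM described below, Atp6v1c2 reached 2.47 in its highest library and Cacna1e 0.341.

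The DNA before the transcription start is shown for the 4 genes whose promoter window held the core of the M-box, a motif that Mitf is known to bind, since these letters can be set beside the levels below. Windows of 300 bases, 250 before the RefSeq start and 50 after it, were available for 6 of the 10 genes on GRCm38.p6 (mm10), with 3 windows for Mitf. Pmel, Mlana, Slc45a2 and Gpr143 had no entry. The sequences run 5′ to 3′ on the strand of the gene, and capitals mark TCATGTG or its reverse complement CACATGA. The Tyr stretch is chr7:87493513-87493762 (minus strand), Dct is chr14:118052247-118052496 (minus strand), Slc24a5 is chr2:125067877-125068123 (plus strand) and Tyrp1 is chr4:80834155-80834184 (plus strand). Tyrp1 is cut to 30 bases because another annotated transcript starts upstream of the match.
Tyr: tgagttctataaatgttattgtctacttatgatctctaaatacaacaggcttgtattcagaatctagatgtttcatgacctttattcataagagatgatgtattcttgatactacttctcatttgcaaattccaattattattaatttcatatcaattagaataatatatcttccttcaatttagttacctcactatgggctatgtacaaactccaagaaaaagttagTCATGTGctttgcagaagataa
Tyrp1: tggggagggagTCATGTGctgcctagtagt
Dct: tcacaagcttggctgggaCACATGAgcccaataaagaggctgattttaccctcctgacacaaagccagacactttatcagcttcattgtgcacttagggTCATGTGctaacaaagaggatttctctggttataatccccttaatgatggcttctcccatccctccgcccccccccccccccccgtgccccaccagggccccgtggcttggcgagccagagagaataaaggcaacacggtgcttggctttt
Slc24a5: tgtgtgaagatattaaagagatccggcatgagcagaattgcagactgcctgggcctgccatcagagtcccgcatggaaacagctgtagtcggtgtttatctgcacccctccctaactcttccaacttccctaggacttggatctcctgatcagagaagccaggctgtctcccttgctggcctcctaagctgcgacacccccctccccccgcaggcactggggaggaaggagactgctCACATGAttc

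The 11 bases around the Tyr match, AGTCATGTGCT, are the full M-box, and begin 24 bases before the Tyr start. Searched on both strands of all windows, the same letters began 49 bases before the start used for Tyrp1, downstream of its first annotated start. They were held by the windows of 7 of 27025 genes, or 0.0259%. The core TCATGTG, which lies inside those letters, was also held by Dct (151 bases before the start on the gene's strand and 232 on the other) and by Slc24a5 (13 bases before the start on the other strand). The core was present in 4 of 6 genes with a window and in 4.31% of all genes with one. The shorter E-box CATGTG, which lies inside the core, was held in addition by Oca2 and by 15.9% of all genes, and CACGTG was held by none of the 6 and by 8.09% of all genes. A match describes the letters only, and no binding was measured here.

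In Sham irises the set ranged from some of the most abundant RNAs to moderate ones. Together the 10 genes held 3.11%, 3.23% and 3.09% of all counts in Sham replicates 1 to 3. For comparisons between genes, counts were divided by the length of the longest annotated transcript to give an approximate TPM (a level that can be set between genes of unequal length). By this level Pmel was in place 3 of 17917 genes in every Sham library, at 11596 ± 539 TPM (SD, n = 3). Dct was in place 4 in every Sham library at 8953 ± 139 TPM, and Tyrp1 was in place 5 or 6 at 6928 ± 193 TPM. Mlana followed at 3219 ± 254 TPM and Slc24a5 at 1141 ± 59.7 TPM. Lower still were Tyr with 432 ± 20.2 TPM, Slc45a2 with 268 ± 30.9 TPM, Oca2 with 167 ± 18.4 TPM, Gpr143 with 142 ± 15.7 TPM and Mitf with 83.4 ± 3.53 TPM. Oca2 and Gpr143 were the only neighbours in this order whose Sham libraries overlapped. With the median in place of the longest transcript length the order of lower genes changed, and Slc24a5 came before Mlana and Oca2 before Slc45a2.

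**Figure D1:**
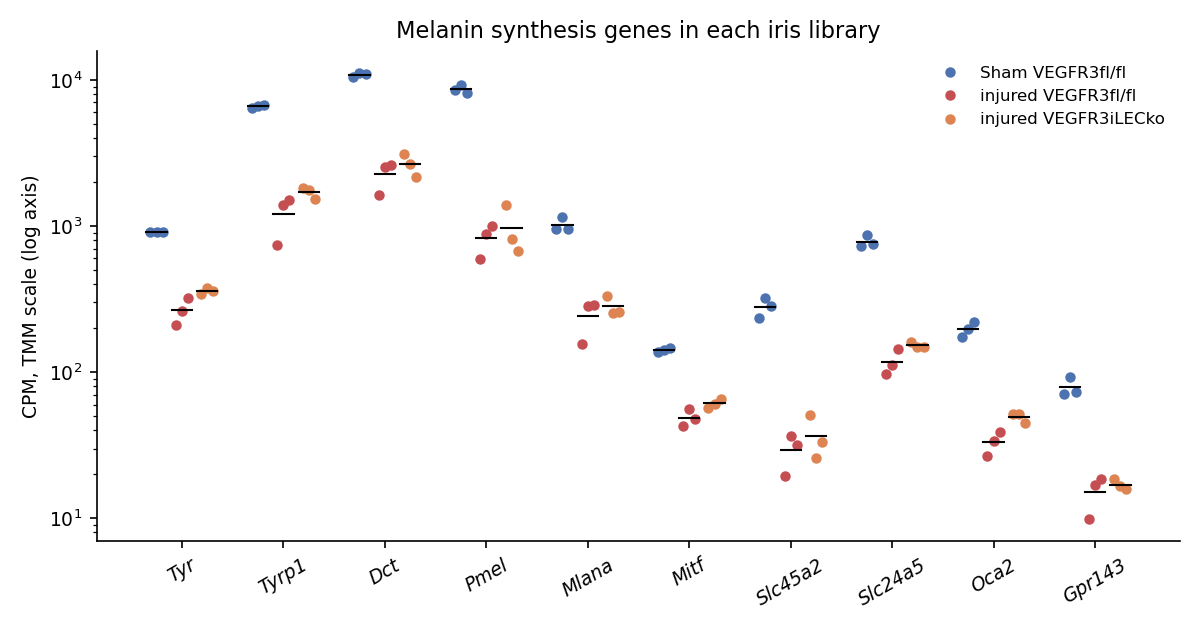
Level of each of the 10 genes in each of the 9 libraries, in CPM on the TMM scale (log axis); points are libraries and bars are group means. For every gene the 3 Sham libraries lie above all 6 libraries of injured irises, while the injured groups overlap for 5 genes.

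After injury all 10 genes were lower. All 10 were DEGs in injured VEGFR3fl/fl against Sham VEGFR3fl/fl, where 17.5% of all genes tested were lower DEGs. No gene of the set overlapped between the 2 groups, and 32.4% of all genes were lower without overlap. Their median log2 fold change was -2.41, against 0.01 for all genes. Scaled by library totals alone, these medians were -2.57 and -0.16. The share of all counts held by the set was 0.317%, 0.547% and 0.582% in injured VEGFR3fl/fl replicates 1 to 3. All these levels are relative to the total of a library. Fewer pigment cells, less RNA per pigment cell and more RNA from other cells cannot be told apart in bulk tissue.

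The 3 enzyme genes all fell. Tyr (NCBI Gene ID 22173, chr7:87424771-87493512), with the M-box before its start, had 917, 905 and 916 CPM in Sham replicates 1 to 3 and 211, 261 and 323 CPM in injured VEGFR3fl/fl replicates 1 to 3. The injured libraries thus kept 29.0% of the Sham mean, a log2 fold change of -1.78 ± 0.14 (SE; edgeR adjusted p = 6.99e-06). Tyrp1 (22178, chr4:80834123-80851736), which also had the M-box, had 6377, 6672 and 6713 CPM in Sham and 738, 1395 and 1518 CPM after injury. Replicate 1 of the injured group was well below the other 2, and the group kept 18.5% of the Sham mean (log2 fold change -2.44 ± 0.24, edgeR adjusted p = 2.93e-05). Dct (13190, chr14:118012790-118052246) had 10421, 11134 and 10932 CPM in Sham and 1622, 2549 and 2618 CPM after injury. It kept 20.9% of the Sham mean, with a log2 fold change of -2.26 ± 0.21 (edgeR adjusted p = 1.78e-05).

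The genes of the melanosome matrix and membrane fell as well, and Pmel had the lowest log2 fold change of the set, next to that of Slc45a2. Pmel (20431, chr10:128695888-128720238) had 8577, 9222 and 8121 CPM in Sham and 599, 875 and 994 CPM after injury. The injured libraries kept 9.52% of the Sham mean, a log2 fold change of -3.39 ± 0.30 (edgeR adjusted p = 1.32e-05), and 91 of 15010 genes had a lower one. Mlana (77836, chr19:29697541-29708447), the membrane protein that binds Pmel, had 954, 1159 and 952 CPM in Sham and 156, 284 and 286 CPM after injury. It kept 23.7% of the Sham mean, with a log2 fold change of -2.08 ± 0.23 (edgeR adjusted p = 5.96e-05). Annotated Pmel exons share 34 bases with Cdk2 and 105 with Dgka on the other strand. Those genes had at most 1930 and 681 counts in any library, against at least 9863 for Pmel.

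All 3 transporter genes fell, each with a lower log2 fold change than the enzyme genes, although the differences between genes were not tested. Slc45a2 (22293, chr15:11000721-11029233) had 236, 322 and 283 CPM in Sham and 19.4, 36.8 and 31.9 CPM after injury, which left 10.5% of the Sham mean (log2 fold change -3.25 ± 0.30, edgeR adjusted p = 1.84e-05). Slc24a5 (317750, chr2:125068127-125088677), a potassium-dependent sodium-calcium exchanger, had 725, 863 and 756 CPM in Sham and 96.9, 112 and 144 CPM after injury, which left 15.1% (log2 fold change -2.73 ± 0.15, edgeR adjusted p = 8.08e-07). Oca2 (18431, chr7:56239593-56536518), which takes part in setting melanosomal pH, had 174, 198 and 221 CPM in Sham and 26.8, 33.8 and 39.2 CPM after injury, which left 16.8% (log2 fold change -2.57 ± 0.15, edgeR adjusted p = 1.08e-06). The groups lay far apart for all 3 transporters. Slc24a5 shares 921 of 2330 exon bases with Myef2 on the other strand, and whether counting used strand is not stated, so the 2 genes are uncertain where they overlap. Myef2 had 2991 to 3285 counts in Sham and 698 to 1039 after injury, fewer than Slc24a5 in each of these groups.

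Gpr143 (18241, chrX:152781921-152808651), the melanosomal receptor, had the fewest counts of the set. It had 70.8, 92.5 and 73.2 CPM in Sham and 9.95, 16.9 and 18.6 CPM after injury, which rested on 164, 289 and 324 counts. Its log2 fold change was -2.38 ± 0.21 (edgeR adjusted p = 1.49e-05). Mitf (17342, chr6:97807002-98021360), the transcription factor of the set, had 137, 142 and 147 CPM in Sham and 42.5, 56.3 and 47.9 CPM after injury. It kept 34.4% of the Sham mean, the largest share of the 10 genes, and its log2 fold change was -1.54 ± 0.10 (edgeR adjusted p = 2.92e-06).

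**Figure D2:**
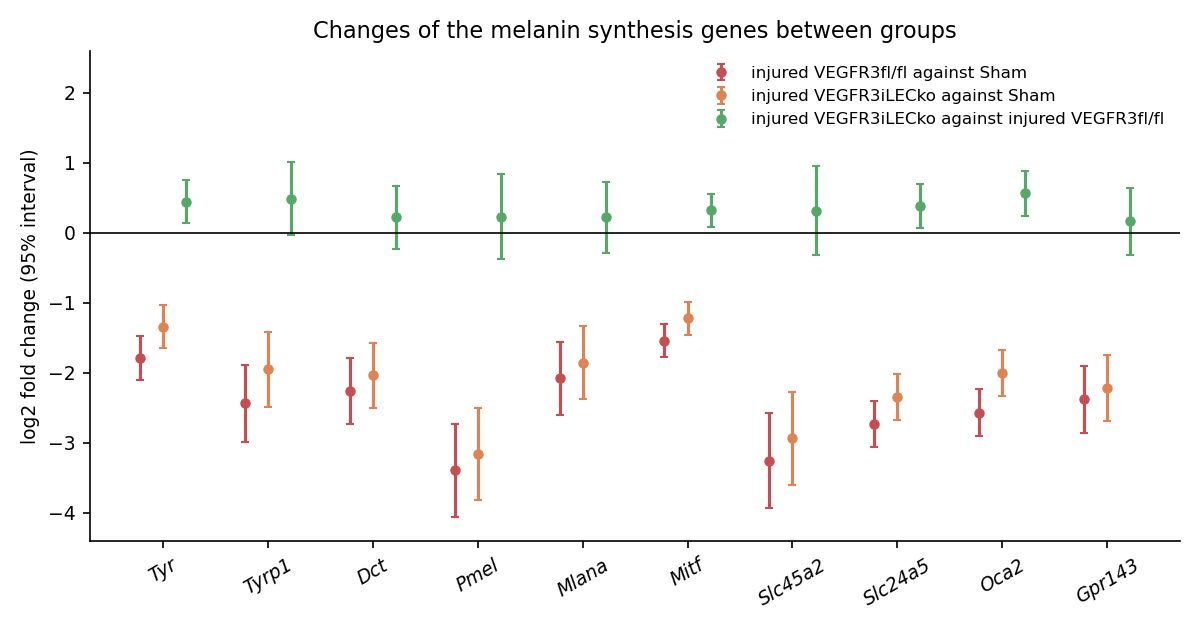
Log2 fold change of each of the 10 genes in the 3 comparisons, with bars for the 95% interval of the edgeR fit. Both comparisons with Sham lie below 0 for all genes, from -3.39 for Pmel to -1.22 for Mitf, and the comparison of the injured groups lies between 0.16 and 0.57.

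The balance within the set was compared next. Within each library, the log2 ratio of each gene's count to that of Mitf does not depend on how libraries are scaled. The Pmel to Mitf log2 ratio was 5.96, 6.02 and 5.78 in Sham and 3.81, 3.96 and 4.38 in injured VEGFR3fl/fl, a difference in means of -1.87. The Slc45a2 to Mitf log2 ratio differed by -1.75 and that of Slc24a5 by -1.20. Ratios for 8 of the 9 genes were lower after injury without overlap, as were those of 2.94% of all other genes tested. Each of the 8 had an exact 2-sided permutation p of 0.1, the smallest that 3 against 3 libraries allow (0.1125 adjusted over the 9 ratios). The exception was Tyr, whose log2 ratio to Mitf was 2.74, 2.67 and 2.64 in Sham and 2.31, 2.21 and 2.75 in injured VEGFR3fl/fl (exact permutation p = 0.4). In the libraries labelled VEGFR3iLECko the Tyr ratio was 2.45 to 2.63, and all 9 ratios lay below Sham without overlap, as did those of 3.07% of all other genes. For Tyr the gap was narrow, 2.632 in the highest of these libraries against 2.635 in the lowest of Sham. Each of the 9 ratios again had an exact permutation p of 0.1. All these ratios are of whole iris, and which cells held the Mitf RNA was not measured, so they do not describe the balance within pigment cells.

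**Figure D3:**
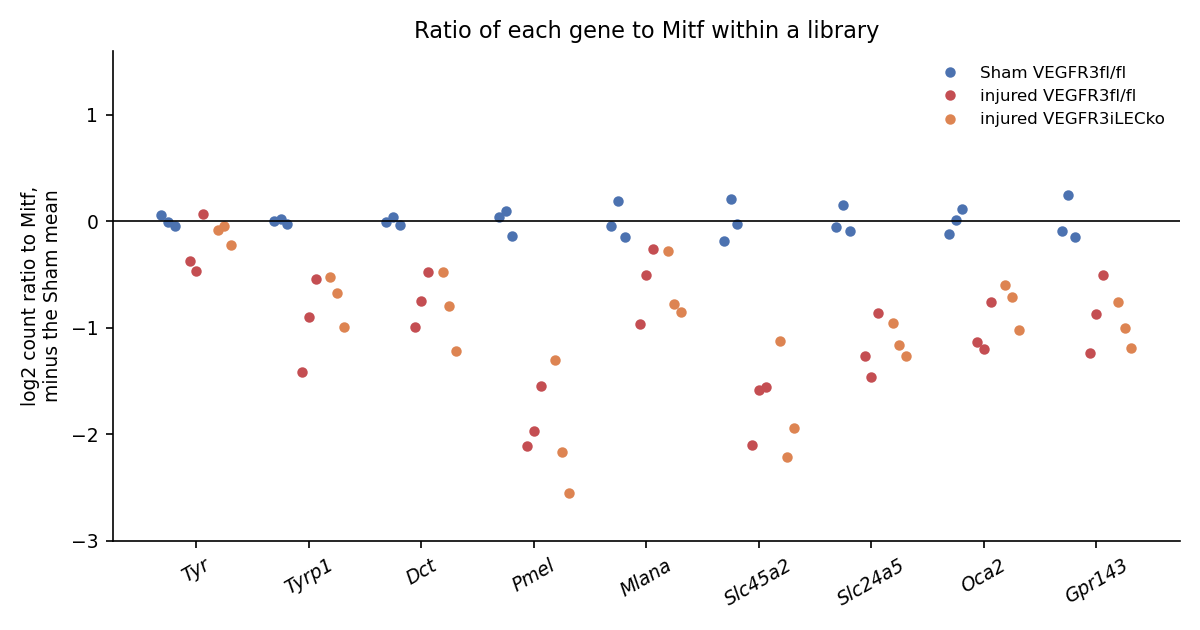
Log2 ratio of each gene's count to the Mitf count in the same library, less the Sham mean of that ratio; points are the 9 libraries. Points for Pmel and Slc45a2 in injured irises lie more than 1 log2 unit below the Sham mean, and those for Tyr overlap Sham in injured VEGFR3fl/fl.

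Per transcript length, Pmel made up 33.8% to 36.1% of the set's summed level in Sham libraries and 19.4% to 21.5% in injured VEGFR3fl/fl. Dct made up 26.5% to 28.1% in Sham and 33.4% to 35.9% after injury. Mitf went from 0.240% to 0.268% in Sham to between 0.433% and 0.667%. After injury Dct had the highest mean level per length, 1544 ± 477 TPM, before Tyrp1 at 1061 ± 425 TPM and Pmel at 911 ± 282 TPM, with overlap between all 3. With median transcript lengths Pmel remained in place 1 after injury. Even so, Dct stayed between places 46 and 136 of 17917 genes in the injured libraries. Slc45a2, Oca2, Gpr143 and Mitf all lay between 13.3 and 29.9 TPM there and overlapped one another.

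**Figure D4:**
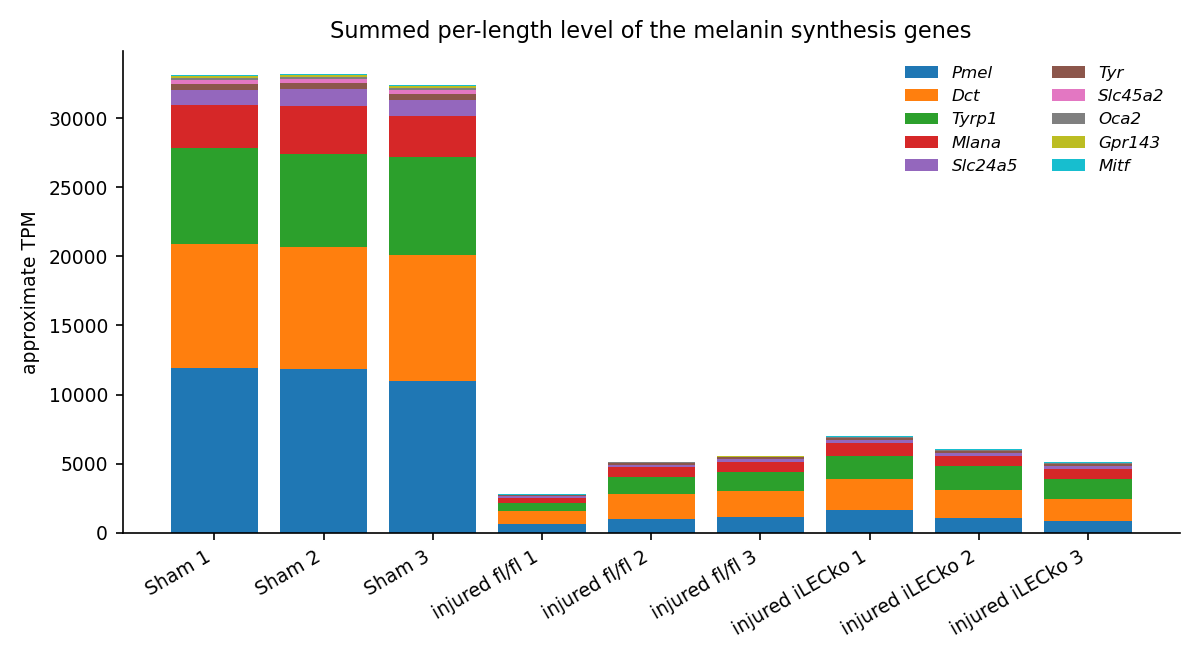
Summed level per transcript length of the 10 genes in each library, in approximate TPM, with 1 colour per gene. Sham libraries stand between 32433 and 33233 TPM and libraries of injured irises between 2774 and 6982 TPM, with injured VEGFR3fl/fl replicate 1 the lowest.

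The libraries labelled VEGFR3iLECko were also compared with Sham, and all 10 genes were again lower. Each was a DEG without overlap, where 15.0% of all genes tested were lower DEGs and 33.2% were lower without overlap. The set held 0.715%, 0.620% and 0.523% of all counts in replicates 1 to 3. Log2 fold changes ran from -3.16 ± 0.29 for Pmel (edgeR adjusted p = 2.57e-05) to -1.22 ± 0.10 for Mitf (edgeR adjusted p = 1.53e-05), with a median of -2.02. This comparison and the previous one share the Sham libraries.

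Between the injured groups no gene of the set was a DEG, and all 10 point estimates were higher in the libraries labelled VEGFR3iLECko. In that comparison 0.573% of all genes tested were higher DEGs and 0.466% were lower, and 48.5% of all genes had a log2 fold change above 0. The median log2 fold change of the 10 melanin genes was 0.32, against -0.0099 for all genes. Unadjusted p was under 0.05 for 4 genes, Tyr, Mitf, Slc24a5 and Oca2, where 12.0% of all genes were higher at that level. These 4 and Tyrp1 were higher without overlap between the injured groups, as were 12.4% of all genes.

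Oca2 had the largest difference, with 51.8, 51.4 and 44.6 CPM in the libraries labelled VEGFR3iLECko against 26.8, 33.8 and 39.2 CPM in injured VEGFR3fl/fl. Its log2 fold change was 0.57 (95% interval 0.24 to 0.89, edgeR adjusted p = 0.0720). Tyr had 345, 376 and 360 CPM against 211, 261 and 323 CPM, a log2 fold change of 0.44 (95% interval 0.14 to 0.75, edgeR adjusted p = 0.106). Mitf had 56.8, 60.7 and 65.6 CPM against 42.5, 56.3 and 47.9 CPM, a log2 fold change of 0.32 (95% interval 0.09 to 0.55, edgeR adjusted p = 0.118). All these libraries stood below Sham, and the labelled VEGFR3iLECko libraries kept 24.9%, 39.5% and 42.9% of the Sham means of Oca2, Tyr and Mitf.

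Tyrp1 had 1823, 1765 and 1528 CPM in the libraries labelled VEGFR3iLECko, all above the highest injured VEGFR3fl/fl library, with a log2 fold change of 0.49 (95% interval -0.03 to 1.01, edgeR adjusted p = 0.226). Slc24a5 had 161, 149 and 150 CPM there, with a log2 fold change of 0.38 (95% interval 0.06 to 0.69, edgeR adjusted p = 0.152). The other 5 genes overlapped between the injured groups. For Dct the values were 3111, 2655 and 2148 CPM in the libraries labelled VEGFR3iLECko (log2 fold change 0.22, 95% interval -0.22 to 0.67). Pmel had 1397, 819 and 679 CPM, against 599, 875 and 994 CPM in injured VEGFR3fl/fl (log2 fold change 0.23, interval -0.38 to 0.84). The intervals of Mlana (-0.28 to 0.73), Slc45a2 (-0.32 to 0.96) and Gpr143 (-0.31 to 0.64) also included 0, so a difference was not detectable for them with these libraries. Log2 ratios to Mitf overlapped between the injured groups for all 9 genes.

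One library on each side lay at the edge of its group across the set. Injured VEGFR3fl/fl replicate 1 was the lowest of its group for 10 of 10 genes, with 3520 CPM summed over the set against 5620 and 6021 CPM in the other 2. Replicate 1 of the libraries labelled VEGFR3iLECko was the highest of its group for 8 of 10 genes, at 7349 CPM against 6171 and 5284 CPM. Without injured VEGFR3fl/fl replicate 1 all 10 genes were still lower DEGs against Sham, with a median log2 fold change of -2.16. Without it the median between the injured groups was 0.16 and the range -0.06 to 0.44. Without injured VEGFR3fl/fl replicate 3, Tyr (0.61, edgeR adjusted p = 0.0359) and Oca2 (0.70, edgeR adjusted p = 0.0469) were called higher.

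Genes that act upstream of Mitf or beside it were compared next. Among 10 neural crest melanocyte factors and receptors, 6 fell after injury and 1 rose, with a median log2 fold change of -0.86. Over all genes tested, 17.5% were lower DEGs and 22.1% were higher DEGs in that comparison. Pax3, a transcription factor that activates Mitf, had 339, 408 and 398 counts in Sham and 13, 53 and 37 in injured VEGFR3fl/fl (log2 fold change -3.41, edgeR adjusted p = 0.000177). Sox10, which acts with Pax3, fell by 2.23 on the log2 scale, the endothelin receptor Ednrb fell by 2.91 and the melanocortin receptor Mc1r had a log2 fold change of -1.99. Erbb3 (-0.91) and Sox5 (-0.81) were the other lower DEGs, and Snai2, a factor also made by fibroblasts, rose by 2.79. Kit, the receptor of melanoblasts that mast cells and other cells also carry, had a log2 fold change of 0.05 (edgeR adjusted p = 0.866).

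Of the ligands, Edn3, which signals through Ednrb, fell from 10249, 12578 and 10789 counts in Sham to 1323, 933 and 1429 after injury, a log2 fold change of -3.12. Edn1 also fell, with a log2 fold change of -2.20 after injury. Kitl, the Kit ligand, had a log2 fold change of 0.58, under the 1.5-fold limit, and Pomc had too few counts to be tested. Among the relatives of Mitf, Tfec was a higher DEG (0.73), while Tfe3 (0.44) and Tfeb (-0.37) were under the 1.5-fold limit. The Tfec call was lost without injured VEGFR3fl/fl replicate 3 and when libraries were scaled by their totals alone.

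Genes outside melanin synthesis that Mitf is known to activate were mostly lower too. Of 8 such genes 7 fell, where 17.5% of all genes tested were lower DEGs, and their median log2 fold change was -1.69. Trpm1, a cation channel gene of melanocytes that hosts a microRNA, had 59876, 61456 and 56058 counts in Sham and 7362, 9750 and 12909 after injury (log2 fold change -2.50, edgeR adjusted p = 4.75e-06). Met (-2.15), Ppargc1a (-2.17), Tbx2 (-1.81), St3gal6 (-1.56), Cdk2 (-1.28) and Bcl2 (-0.68) were the other lower DEGs. Gpnmb, a Pmel relative that macrophages also make, had 131987 to 139361 counts in Sham and 105519 to 113252 after injury, a log2 fold change of -0.22 that was not a DEG (edgeR adjusted p = 0.117).

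Genes for building and moving melanosomes held no larger share of DEGs than all genes tested. Of 27 such genes 4 fell, 4 rose and 19 were not DEGs, a smaller share in each direction than the 17.5% lower and 22.1% higher DEGs of all genes tested, and the median log2 fold change was 0.00. The lower ones were Rab38 (-1.83), a sorting GTPase of the melanosome, Rab27a (-1.80) and Mlph (-1.98), which tether melanosomes to the motor Myo5a, and Hps4 (-0.70). The higher ones were Rab32 (1.07), Tpcn2 (1.78), Mfsd12 (1.32) and Bloc1s2 (0.65). Myo5a itself had a log2 fold change of -0.39, under the 1.5-fold limit. Of 7 tested genes for tyrosine and cofactor supply, Pts fell (-0.81) and Pcbd1 rose (0.63), the latter not without injured VEGFR3fl/fl replicate 3, and each count was again a smaller share than that of all genes.

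**Figure D5:**
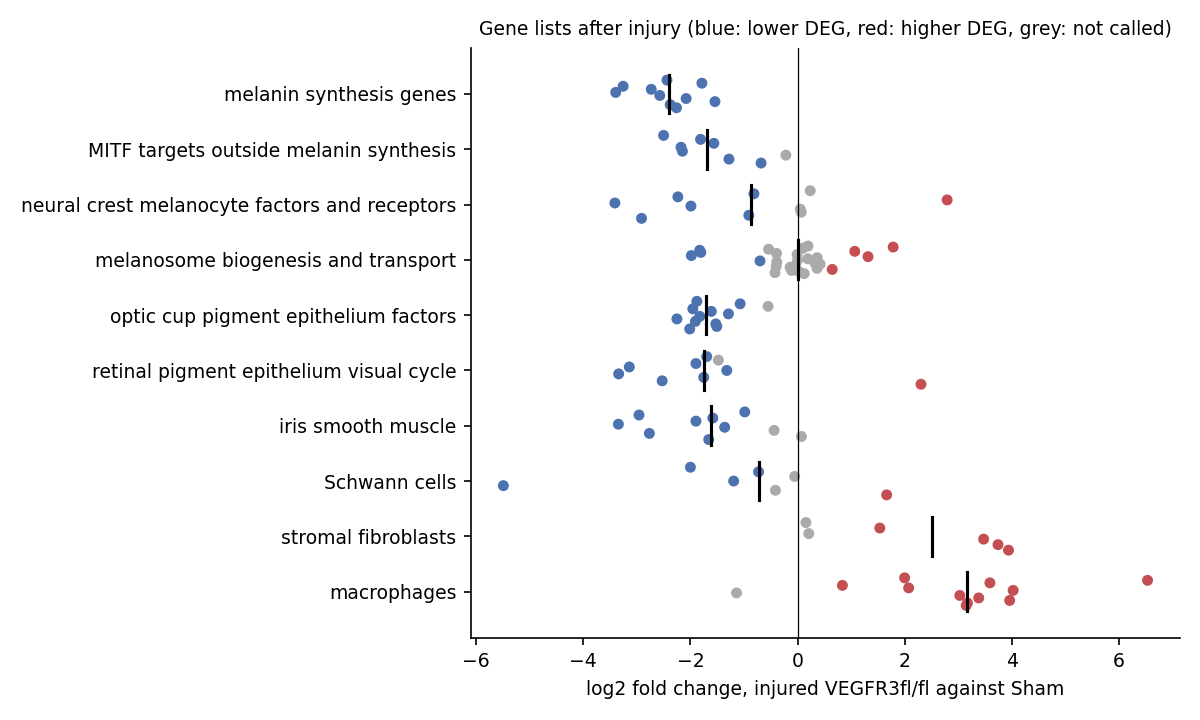
Log2 fold change of each tested gene of 10 lists in injured VEGFR3fl/fl against Sham; blue points are lower DEGs, red points higher DEGs and grey points neither, and bars are medians. The melanin synthesis genes lie between -3.39 and -1.54 (median -2.41), the melanosome genes spread around 0 and macrophage genes lie mostly to the right (median 3.16).

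Markers of pigment epithelium and smooth muscle were also mostly lower after injury. The counts below stand beside 17.5% lower and 22.1% higher DEGs over all genes tested. Of 12 tested transcription factors of the optic cup, 11 fell, with a median log2 fold change of -1.72, among them Pax6 (-1.82), Lhx2 (-2.01) and Otx2 (-2.25). Their summed level was 1690 to 1835 CPM in Sham and 449 to 523 CPM in injured VEGFR3fl/fl. Of 9 visual cycle genes of the retinal pigment epithelium, a pigmented tissue that uses the same melanin genes, 7 fell and 1 rose, and their sum went from 586 to 648 CPM in Sham to between 142 and 245 CPM. Rpe65, which defines that tissue, had 111, 184 and 110 counts in Sham and 33, 3 and 7 after injury. Rpe65 and Rgr (312, 49 and 40 counts) were thus highest in injured VEGFR3fl/fl replicate 1, the lowest of its group for all 10 melanin genes. Rlbp1 had 1374, 1199 and 1438 counts in the same libraries. The gene that rose was Best1 (2.30, edgeR adjusted p = 0.00126), with 17, 12 and 23 counts in Sham and 130, 45 and 69 after injury. Of 10 smooth muscle genes 8 fell, with Myh11 at -3.34.

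Macrophage and stromal fibroblast genes mostly went the other way. Of 12 macrophage genes 11 rose, where 22.1% of all genes tested were higher DEGs. Their sum was 517 to 537 CPM in Sham against 12729 to 21182 CPM in injured VEGFR3fl/fl. Most of the sum after injury was Lyz2, at a mean of 13061 CPM. Of 6 stromal fibroblast genes 4 rose and none fell, with Col1a1 at 3.94. Pdgfra (0.16) and Dcn (0.21) were not DEGs, and Lum (1.54) had 31780, 6521 and 11067 counts in injured VEGFR3fl/fl replicates 1 to 3. Of 7 Schwann cell genes, which share Sox10 with melanocytes, 4 fell and 1 rose, where 17.5% of all genes tested were lower DEGs. Of 3 tested lens genes Cryaa rose and Bfsp2 fell, and none of 7 rod genes was a DEG, although 5 were lower DEGs without injured VEGFR3fl/fl replicate 2. The part of these cell types in the change of the melanin genes was not tested.

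Between the injured groups, 48.5% of all genes tested had a log2 fold change above 0, 0.573% were higher DEGs and 0.466% lower. There 11 of 12 optic cup factors had higher point estimates in the libraries labelled VEGFR3iLECko, with a median log2 fold change of 0.65. Lhx2 was the 1 DEG among them (0.65, edgeR adjusted p = 0.0392), and 0 to 6 were higher DEGs over the alternatives tried. Their summed level was 659 to 858 CPM against 449 to 523 CPM in injured VEGFR3fl/fl. Of 9 visual cycle genes of the retinal pigment epithelium, 7 had lower point estimates in the libraries labelled VEGFR3iLECko. Their median log2 fold change was -0.12 and none was a DEG. Of the Mitf targets, Ppargc1a was a higher DEG (0.88, edgeR adjusted p = 0.0421), with 0 to 2 over the alternatives. Of the melanosome genes, Slc7a11, a cystine transporter, was higher (0.61) and Mfsd12 lower (-0.66). Neither was called with the 6 injured libraries alone, but no gene of any kind was called there. Macrophage genes, mostly Lyz2 (mean 7302 CPM), summed to 8244 to 10145 CPM in the libraries labelled VEGFR3iLECko, below all injured VEGFR3fl/fl libraries. Of these genes 6 were lower DEGs and Cd14 was higher. None of them was called with the 6 injured libraries alone, as no gene was, and their part in the levels of the melanin genes was not tested.

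The genes outside the set whose profile over the 9 libraries was nearest to the mean profile of the 10 genes were ranked by the root mean square difference in centred log2 CPM. The 8 nearest of 14212 candidates were Trim63 (0.0956), Slc7a5 (0.116), Sox10 (0.148), Trpm1 (0.160), Tpd52l1 (0.167), Synpr (0.168), Rdh1 (0.173) and Lef1 (0.175). Members of the set themselves lay between 0.103, for Dct and Gpr143, and 0.523, for Pmel. Trim63, a muscle ubiquitin ligase, averaged 27.3 CPM in Sham, 5.17 CPM in injured VEGFR3fl/fl and 5.95 CPM in the libraries labelled VEGFR3iLECko. Slc7a5, a transporter of large neutral amino acids that include tyrosine, averaged 272, 46.8 and 59.0 CPM in the same order.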

How the data were processed

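Iris RNA was sequenced in 9 libraries (TruSeq mRNA). The authors deposited estimated counts per gene, not normalized, and their processing notes name HISAT2 2.0.4, Bowtie2 2.2.5, DESeq2 1.4.5 and mm10. The counting program, annotation and use of strand are not given in the sources used here. Between 9.83% and 10.3% of values were not whole and were rounded. A combined table of the same counts was not used. Groups came from titles and descriptions, since the genotype tag of 2 labelled VEGFR3iLECko libraries named another receptor number.

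Genes were kept by filterByExpr of edgeR 4.0.16 (R 4.3.3). The 9 libraries were fitted together with TMM normalization (factors 0.90 to 1.09) and group as the only term, and the quasi-likelihood test was adjusted by Benjamini-Hochberg over 15010 genes. A gene was called a DEG when its fold change passed 1.5 and its adjusted p was below 0.05. Standard errors came from the F statistic. CPM were on the TMM scale. TPM used the longest GENCODE M21 transcript, found for 97.6% of genes. Promoters and gene coordinates were from RefSeq on GRCm38.p6.

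The members and lists were chosen with earlier results of these data known, so no set test was made. Text names all members, list genes that were called or define their list, and the 8 nearest profiles. Replicates differed beyond sampling noise (chi-square per degree of freedom 5.13 to 76.2). On simulated counts for the injury comparison, 176 of 200 genes changed 3-fold were recovered among 15010, with 8 false calls. The simulation used Sham means, equally many changes up and down and the same dispersion trend for all libraries. The data held 3323 higher and 2630 lower DEGs. Injured VEGFR3fl/fl replicates were also noisier (26.7 to 76.2, against 5.13 to 11.2 in Sham), so these rates need not hold for the data. DESeq2 1.42.0, other normalizations, no filter, 6 libraries, a block on replicate numbers and omission of each library in turn were the alternatives. Depth was 16617187 to 18306359 counts per library.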

Additional observations from a re-analysis of the deposited data

How the results depend on the processing

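All 10 melanin synthesis genes were lower DEGs in both comparisons with Sham under each of the 16 alternatives, RLE, upper quartile and library size scaling, no filter, DESeq2, 6 libraries, a replicate block and 9 omissions of 1 library. Between the injured groups, 0 were called in the report and 0 to 2 with 1 library left out, the 2 without injured VEGFR3fl/fl replicate 3. There Slc24a5 had 0.55 (edgeR adjusted p = 0.0477), under the 1.5-fold limit, and with DESeq2 Tyr had 0.45 (adjusted p = 0.0211) and Oca2 0.57 (adjusted p = 0.00682), also under it. The direction turned for Pmel without labelled VEGFR3iLECko replicate 1 (-0.13, edgeR adjusted p = 0.707), and without injured VEGFR3fl/fl replicate 1 for Mlana (-0.0100, adjusted p = 0.982) and Gpr143 (-0.062, adjusted p = 0.849). With 1 library left out these log2 fold changes ran from -0.13 to 0.43 for Pmel, from -0.0100 to 0.36 for Mlana and from -0.062 to 0.34 for Gpr143. The cause was not tested. Over all genes, 86 higher and 70 lower DEGs between the injured groups became 344 and 282 with DESeq2, 0 and 0 with the 6 libraries alone (2805 at an unadjusted p under 0.05), 11 and 13 with the replicate block, and 41 lower with library size scaling. With 1 library left out they ran from 0 to 174 higher and from 0 to 149 lower.

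Replicate numbers were shared between groups, but same-numbered libraries did not deviate together (correlations -0.378 to 0.113), and 1 of 9 libraries correlated best with its own number. With the replicate block all 10 genes stayed lower DEGs against Sham (edgeR adjusted p from 1.09e-05 to 0.000348 for injured VEGFR3fl/fl), and 0 were called between the injured groups (0.107 to 0.732). Pooled irises, 3 libraries a group and unknown counting rules limit precision.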
